A study of Mus musculus with 8 samples.

Results

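Arntl and Per2 are core genes of the circadian clock, and their transcripts are described here in mouse colon tumours. Both were taken by gene name from the deposited table of the comparison of knockout with wild-type tumours, and they are 2 of its 1428 genes. The table lists genes with an unadjusted p below 0.05 in that comparison, so both were in effect chosen by the difference described below. The p-values printed for that difference describe the selected values and are no independent test of it.

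Tumour RNA from the colon of C57BL/6N mice was sequenced in 8 libraries. The wild-type group (WT) has 4 libraries, labelled Wildtype with no further allele named. The knockout group (KO) has 4 libraries labelled miR-29ab1Vilin-KO, from mice in which the miR-29ab1 cluster was disrupted in the intestinal epithelium alone, so immune and stromal cells of these tumours keep the cluster. Per the series description, the mice of the study received azoxymethane, which mutates colonic DNA, together with dextran sodium sulfate, an agent of colitis, and so developed tumours. Age, sex, time of day at collection, feeding state and whether each library came from a separate animal are not given in the sources used here. Any spread between libraries may therefore be technical. The levels of the miR-29 transcripts themselves were not analysed here.

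The clock of most mammalian cells is a feedback loop. Arntl encodes BMAL1, a transcription factor that pairs with CLOCK or NPAS2 and switches on genes with an E-box in their promoter, among them the Per and Cry genes. PER and CRY proteins accumulate, return to the nucleus and shut their own activators off. A side loop runs through nuclear receptors that bind ROR elements in the Arntl promoter, where ROR proteins activate and REV-ERB proteins (Nr1d1, Nr1d2) repress. In a tissue whose cells keep the same time, Arntl transcripts peak at about the opposite time of day from Per2 transcripts. The colonic epithelium is one such rhythmic tissue.

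The promoter sequences that carry this wiring are shown for the members and listed partners that have an entry in the RefSeq promoter set of GRCm38.p6. Of the 5 clock genes described here from the deposited table, 4 had an entry, namely Arntl, Npas2, Cry1 and Nfil3, while Per2 is named only. Each window spans 300 bases, most of them upstream of an annotated start. The Arntl promoter holds a tandem pair of ROR-type elements, shown because the side loop acts on Arntl there. The Cry1 promoter holds an E-box, the sequence that BMAL1 binds. Capitals mark the element, and each run is written 5′ to 3′ on the strand of its gene.
Arntl upstream element, chr7:113207493-113207520, plus strand: ttggtcggAAAGTAGGTTAgtggtgcga
Arntl downstream element, chr7:113207529-113207556, plus strand: gaaggcagAAAGTAGGTCAgggacggag
Cry1 E-box, chr10:85185098-85185125, minus strand: gtgccggtggtCACGTGgggtgcatgcc

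The capitals of the upstream Arntl element begin 10 bases before the downstream of the 2 annotated Arntl starts, and those of the other begin 27 bases after it. The E-box of Cry1 begins 60 bases before its start. Searched on both strands, the letters in capitals of the Arntl elements, with any base at the last place but 1, lay in 20 of 32851 promoter windows (0.0609%), and they were chosen after the Arntl window was read. AGGTCA, the shorter ROR half-site, which the downstream element contains, lay in 16.3% of windows, and CACGTG in 7.15%. The D-box TTATGTAA, the site of the DBP and NFIL3 proteins, lay in 0.938% of windows and in none of the windows of these 4 genes. A match describes the letters only.

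The deleted microRNAs are shown because a transcript that carries their seed match could be under their direct control. Capitals mark the seed, bases 2 to 8, which the miR-29a and miR-29b strands share.
mmu-miR-29a-3p, chr6:31062673-31062694, minus strand: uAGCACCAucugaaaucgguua
mmu-miR-29b-3p, chr6:31063025-31063047, minus strand: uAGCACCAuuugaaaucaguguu

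The match to this seed, TGGTGCT, was absent from the annotated 3′ UTRs of Arntl and Per2, of which the longest are 507 and 1889 bases in GENCODE M21. It was also absent from those of Npas2, Cry1 and Nfil3. Of the 33 clock genes searched that the deposited table does not list, 8 carried it, among them Clock, Per1 and Per3. Over all 21020 protein-coding genes with an annotated 3′ UTR, 13.8% carried it in at least 1 transcript.

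Arntl lies on chromosome 7 from 121567941 to 121685673 on the plus strand, as positioned in the deposited file, where identifiers follow the annotation of strain C57BL/6NJ. It is annotated there as a protein-coding gene of 2904 bases. Its level is given in normalized counts, which are read counts divided by a size factor for each library. In WT libraries 1 to 4 it stood at 181, 667, 283 and 342 normalized counts. In KO libraries 1 to 4 it stood at 569.8, 631, 388 and 1713. WT replicate 2 lay above KO replicates 1, 2 and 3, so the groups overlapped, and KO replicate 4 was the highest of all 8. Only that KO library exceeded every WT library, although all 4 exceeded the WT mean.

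The Arntl mean was 368 ± 209.9 over the WT libraries and 826 ± 601 over the KO libraries (SD, n = 4 each). In the authors' deposited table Arntl has a log2 fold change of KO over WT of 1.16, an unadjusted p of 0.0255 and a DESeq2 adjusted p of 0.66. A DESeq2 refit of the whole reads recovered from the normalized values gave a standard error of 0.55 for that log2 fold change. Without KO replicate 4 the KO mean was 529.6 ± 127 (SD, n = 3), or 1.44 times the WT mean in place of 2.24 times. KO replicate 4 alone stood at 4.65 times the WT mean. Without WT replicate 2 as well, the remaining KO libraries averaged 1.97 times the remaining WT libraries, whose mean was 269.

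Per2 encodes a period protein, a repressor of its own transcription. It lies on chromosome 1 from 96520397 to 96563842 on the minus strand in the same coordinates, a protein-coding gene of 5856 bases. In WT libraries 1 to 4 it stood at 496, 610.2, 723 and 360.2 normalized counts. In KO libraries 1 to 4 it stood at 586, 743, 823 and 2162. KO replicate 1 lay below WT replicates 2 and 3, and the groups overlapped there, while the other 3 KO libraries exceeded every WT library. KO replicate 4 again stood far above the rest.

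The Per2 mean was 547 ± 155 over the WT libraries and 1079 ± 729 over the KO libraries (SD, n = 4 each). In the authors' deposited table Per2 has a log2 fold change of 0.98, an unadjusted p of 0.0243 and a DESeq2 adjusted p of 0.656. The DESeq2 refit of recovered reads put the standard error of that log2 fold change at 0.45. Without KO replicate 4 the KO mean was 717 ± 120.5 (SD, n = 3), 1.31 times the WT mean in place of 1.97 times. KO replicate 4 stood at 3.95 times the WT mean.

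**Figure D1:**
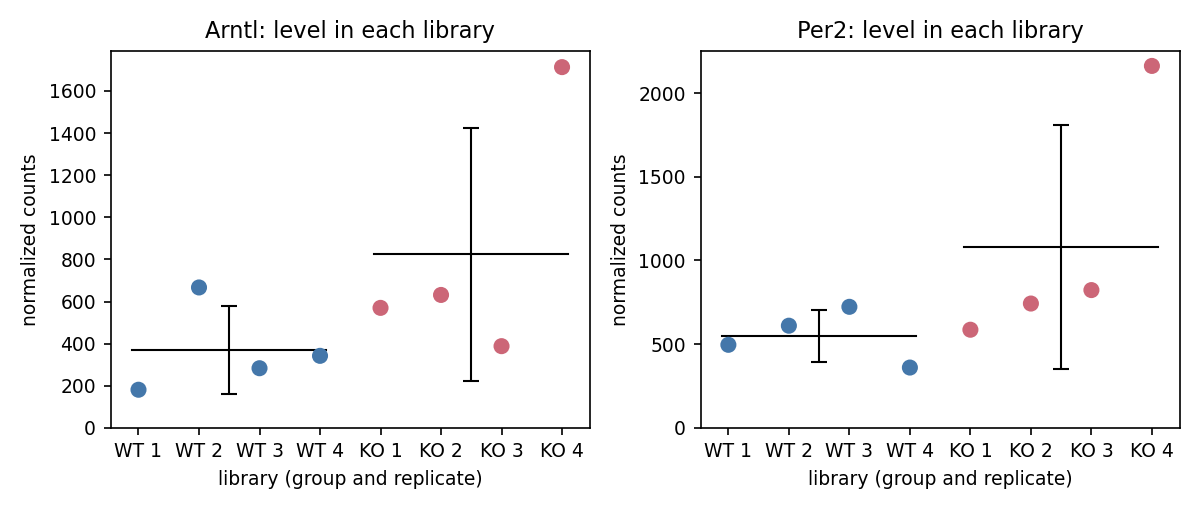
Level of Arntl (left) and Per2 (right) in normalized counts (vertical axis, linear) in each of 8 libraries (horizontal axis; blue WT, red KO). Points are single libraries, horizontal lines are group means and vertical bars are ± 1 SD over 4 libraries. KO replicate 4, at 1713 for Arntl and 2162 for Per2, lies above all other libraries, and of the remaining KO points all 3 for Arntl, but only KO replicate 1 for Per2, lie within the range of the WT points.

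Neither gene met the adjusted threshold of 0.05, which 8 of the 19985 genes behind the authors' adjustment met (0.04%). At an unadjusted p below 0.05 the authors' deposited table holds 7.06% of those genes, 4.09% higher in KO and 2.97% lower. Groups that did not overlap occurred in 44.7% of the listed genes, and neither Arntl nor Per2 was among them. By p the members ranked 771 and 741 among the 1428 listed genes, Arntl being the later of the pair. Among the 829 genes listed higher in KO (58.1% of the list), 56.2% had a smaller log2 fold change than Arntl and 48.9% a smaller one than Per2.

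The libraries of each group differed more in the members than in most listed genes of like abundance. On the log2 scale the SD of Arntl over the 4 WT libraries was 0.78, against a median of 0.27 over 193 listed genes with a mean within 1.5 times of its own, and 95.3% of those genes had a smaller SD. Over the 4 KO libraries the SD of Arntl was 0.91, larger than in 88.6% of the same genes. For Per2 the SD was 0.43 in WT, larger than in 75.5% of 216 such genes, and 0.83 in KO, larger than in 86.1%. Counting error was small beside this spread. Arntl values rested on 186 to 1751 recovered reads, for which counting alone gives a relative SD of 7.33% to 2.39%, and Per2 values on 356 to 2210 reads. These figures cover counting error only, and reads without molecular identifiers are not independent molecules.

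The activator and the repressor were then compared within each library, where the size factor cancels. Levels of different genes are compared per length, as normalized counts per kilobase of gene model. Arntl averaged 127 ± 72.3 per kilobase in WT and 284 ± 207 in KO (SD, n = 4 each), and Per2 averaged 93.5 ± 26.5 in WT and 184 ± 125 in KO. The ratio of Arntl to Per2 per kilobase was 0.735, 2.2, 0.79 and 1.91 in WT replicates 1 to 4. It was 1.96, 1.71, 0.95 and 1.6 in KO replicates 1 to 4. Arntl thus exceeded Per2 in WT replicates 2 and 4 and in KO replicates 1, 2 and 4, and was below it in the other 3 libraries.

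On the log2 scale this ratio averaged 0.59 ± 0.46 in KO and 0.32 ± 0.83 in WT (SD, n = 4 each). All 4 KO ratios lay within the range of the WT ratios, which ran from -0.44 to 1.14. The difference of 0.26 between the group means was smaller than the SD of either group. Single libraries of both groups moved it: it was 0.0087 without WT replicate 1, 0.042 without WT replicate 3, 0.47 without WT replicate 4 and 0.53 without WT replicate 2, with a pseudocount of 1. It was 0.14 without KO replicate 1 and 0.48 without KO replicate 3. In KO replicate 4, where both genes were highest, the log2 ratio of 0.68 lay close to the KO mean, so the activator and the repressor were high together in that library and in similar proportion.

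**Figure D2:**
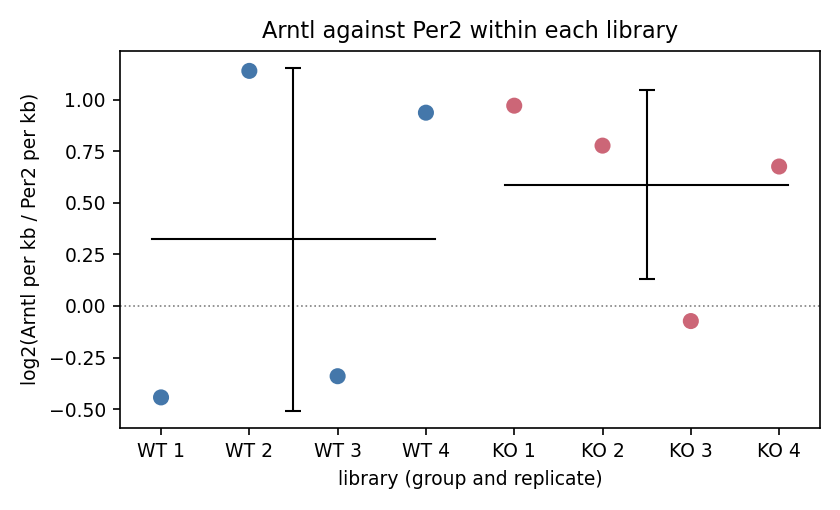
Log2 of the ratio of Arntl to Per2, each per kilobase of gene model (vertical axis), in each of 8 libraries (horizontal axis; blue WT, red KO), with group means as horizontal lines and ± 1 SD over 4 libraries as vertical bars. The dotted line marks equal levels. The KO points, from -0.07 to 0.97, lie inside the range of the WT points, -0.44 to 1.14.

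Variation within the groups was compared after each gene's log2(value + 1) was centred on its group mean. Over the 8 libraries the centred values of Arntl and Per2 had a Pearson r of 0.63 and a Spearman rho of 0.36. Without KO replicate 4 the Pearson r was 0.04. Without KO replicate 4 and WT replicate 2, the libraries farthest from their group mean in Arntl, it was -0.33 over 6 libraries. The likeness of the pair thus rested on KO replicate 4. These values are descriptions and no p-value is attached to them.

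The other genes of the clock came from a list of 38 activators, repressors, receptors, kinases and outputs. The authors' deposited table holds 5 of the 38 (13.2%), with 4 higher in KO and 1 lower, and 0 of the 5 at a DESeq2 adjusted p below 0.05. Of all genes behind the adjustment 7.06% are listed, 4.09% higher and 2.97% lower, so that 58.1% of the listed genes are higher. Since Arntl and Per2 were chosen from this list, nothing is read from these shares. Over these 5 genes the log2 fold changes of the authors' deposited table had a median of 0.97, against 0.48 over all listed genes. Both medians mix genes listed higher and lower, in unlike shares, so nothing is read from them either. In none of the 5 did the groups separate, against 44.7% of all listed genes in which they did. The other 33 are not among the genes listed, so no level or direction is given for them. They include Clock, Per1, Per3, Cry2, both REV-ERB genes and the output genes Dbp, Tef and Hlf.

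On the activating side, Npas2, a partner of BMAL1 that can stand in for CLOCK, was listed higher. It stood at 390.1, 727, 505 and 207 normalized counts in WT replicates 1 to 4 and at 1114, 678, 565 and 1226 in KO replicates 1 to 4. KO replicates 1 and 4 exceeded every WT library, and WT replicate 2 exceeded the other 2 KO libraries. Its mean was 457 ± 218 over the WT libraries and 896 ± 323 over the KO libraries (SD, n = 4 each). In the authors' deposited table Npas2 shows 0.97 on the log2 fold scale, with an unadjusted p of 0.0184 and a DESeq2 adjusted p of 0.642. Without KO replicate 4 the KO mean of Npas2 was 1.72 times the WT mean, against 1.96 times with it. Its KO ratio thus leaned less on that library than those of Arntl and Per2.

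On the repressing side, Cry1, a cryptochrome that joins PER2 in the repressor complex, was listed higher. It stood at 355, 565, 359 and 361 normalized counts in WT replicates 1 to 4 and at 463, 758, 539 and 1073 in KO replicates 1 to 4. WT replicate 2 was set apart from the other 3 WT libraries, which ran from 355 to 361, and it exceeded KO replicates 1 and 3. The mean was 410.1 ± 103 over the WT libraries and 708 ± 274 over the KO libraries (SD, n = 4 each). For Cry1 the log2 fold change is 0.79 in the authors' deposited table, with an unadjusted p of 0.0151 and a DESeq2 adjusted p of 0.625. KO exceeded WT 1.43 times in mean without KO replicate 4 and 1.73 times with it.

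Nfil3 encodes a repressor that competes with DBP at D-box sites, and of these 5 genes it was the one listed lower. It stood at 215, 255, 307 and 245 normalized counts in WT replicates 1 to 4 and at 228, 189.7, 164 and 122 in KO replicates 1 to 4. KO replicates 2, 3 and 4 lay below every WT library, and KO replicate 1 lay above WT replicate 1. The mean was 255.5 ± 38.5 over the WT libraries and 176.0 ± 44.6 over the KO libraries (SD, n = 4 each). In the authors' deposited table Nfil3 shows -0.54 on the log2 fold scale, with an unadjusted p of 0.0379 and a DESeq2 adjusted p of 0.70. The ratio of the KO to the WT mean was 0.69 with all libraries, and 0.76 times without KO replicate 4.

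**Figure D3:**
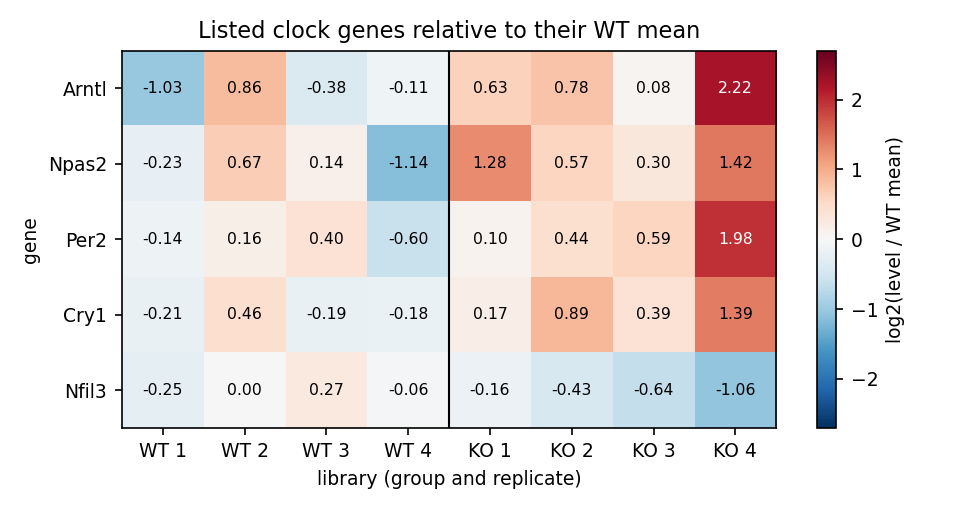
Level of Arntl, Npas2, Per2, Cry1 and Nfil3 (rows) in each of 8 libraries (columns; WT left of the line, KO right), as log2 of the level over the gene's WT mean; red is above that mean and blue below. KO replicate 4 holds the highest KO value of 4 genes and the lowest of Nfil3, and WT replicate 2 the highest WT value of 3.

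A pattern by library ran through these genes. KO replicate 4 was the highest KO library in Arntl, Npas2, Per2 and Cry1, and the lowest in Nfil3. Over the whole list it held the top KO value in 75.0% of the 829 genes with a higher KO mean, and the bottom KO value in 59.3% of the other 599. Among the WT libraries, replicate 2 stood highest in Arntl, Npas2 and Cry1 but not in Per2 or Nfil3, where WT replicate 3 was. Over all genes listed higher, replicate 2 held the top WT value in 24.8%.

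**Figure D4:**
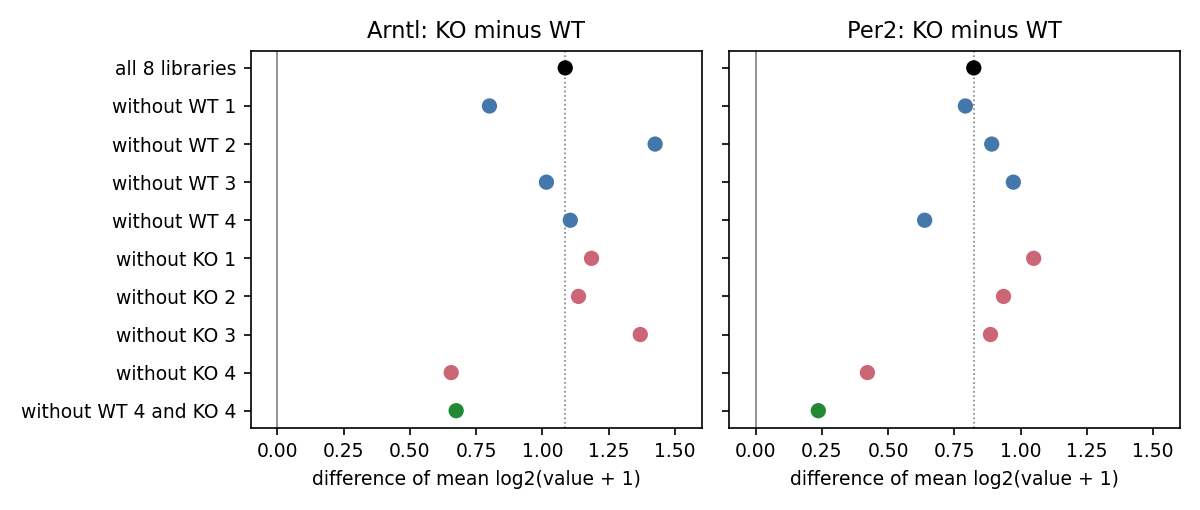
Difference of mean log2(value + 1) between KO and WT (horizontal axis) for Arntl (left) and Per2 (right) with all 8 libraries (black, dotted line) and with libraries left out (blue a WT library, red a KO library, green both replicates 4). Without KO replicate 4 the difference is 0.66 for Arntl and 0.42 for Per2, against 1.09 and 0.82 with all libraries, and it stays above 0 in every case shown.

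Some markers of cell types were also listed higher in KO, and in bulk tissue more cells of a type and more RNA per cell cannot be told apart. Of all genes behind the adjustment 7.06% are listed, and 58.1% of the listed genes are higher in KO. These shares stand beside each marker count here and below. Markers that are not listed have no level or direction here. Of 9 B cell markers all 9 were listed, all higher in KO. Their summed level ran from 94.5 to 232 normalized counts in WT and from 174 to 2780 in KO, with the top value in KO replicate 4. Pax5, Cr2 and Blk were at 0 in WT replicate 2, and Ighd was at 0 in WT replicates 1 and 3. Of 9 colonic epithelial markers 2 were listed, Cdhr5 and Mep1a. Their sum ran from 5675 to 7488 in WT and from 8167 to 23257 in KO, again with the top value in KO replicate 4. Cdhr5 made up most of the sum. Mep1a overlapped between groups, since KO replicates 1 and 3, at 573 and 294, lay within its WT range of 204 to 679. The remaining epithelial markers, Epcam, Vil1 and Krt8 among them, are not listed, so the labelled tissue could be checked against these 2 alone.

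Of 6 T cell markers 3 were listed, all higher, and their sum ran from 59.3 to 78.1 in WT and from 127 to 159 in KO. None of 5 myeloid markers was listed. Single markers of smooth muscle (of 4), fibroblasts (of 3) and enteric neurons (of 3) were listed, all higher in KO. The smooth muscle marker Myocd was low and its groups overlapped, from 0 to 6.8 normalized counts in WT and from 2.1 to 24.0 in KO. The neuron marker Chat was at 0 in all 4 WT libraries and ran from 0.89 to 39.1 in KO. The part of these cell types in the differences of Arntl and Per2 was not tested.

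The time of day at which tissue was taken bears directly on these genes, since both are rhythmic. No label gives that time for any library, so time of collection and genotype cannot be told apart for Arntl or Per2. The measurements that can be set beside the question are those already given. Both genes were higher in mean in KO, the range of their ratio in KO lay inside that in WT, and the ratio differed between WT libraries by up to 1.58 on the log2 scale. Other strongly rhythmic clock genes, such as Nr1d1, Dbp and Per3, are not among the genes listed, so they give no level or direction here. The part of sampling time was not tested.

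Likeness to other genes was ranked over the 742 other listed protein-coding genes with a mean of at least 100 normalized counts, by the same centred r over 8 libraries. The genes most like Arntl were Dll1, a Notch ligand, with an r of 0.94, Dock8, a guanine nucleotide exchange factor of immune cells, with 0.93, and a gene without a symbol in the table, with 0.92. The last is described in the table as a NAIP protein, a family of near-identical copies whose reads may be split, so its values are uncertain. The least like were Cpxm2 at -0.91, Thsd1 at -0.87 and Lypd6b at -0.85. Dll1 stood at 119, 237, 153 and 141 normalized counts in WT replicates 1 to 4 and at 211, 297, 181 and 389 in KO replicates 1 to 4, and its order among the KO libraries, but not among the WT libraries, was that of Arntl. Cry1 ranked 20 among genes like Arntl, while Per2 ranked 175.

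The genes most like Per2 were Pigr, the epithelial receptor that carries polymeric immunoglobulin into the lumen, and Fzd5, a Wnt receptor, both with an r of 0.98, and Dnmbp, a scaffold for actin regulators, also with 0.98. The least like were Gtf2h5, a subunit of the TFIIH transcription factor, B4galnt4, a glycosyltransferase, and Slc25a4, a mitochondrial ADP/ATP carrier, each with an r of -0.97. Fzd5 stood at 1074, 1176, 1221 and 841 normalized counts in WT replicates 1 to 4 and at 1306, 1495, 1565 and 2288 in KO replicates 1 to 4. Its order within each group was that of Per2. In all, 73 genes had an r above 0.9 with Per2 and 5 had one with Arntl, and with KO replicate 4 left out, 2 of the 12 named genes were named again. Without it, Fzd5 kept an r of 0.98 with Per2 and Dll1 one of 0.91 with Arntl.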

How the data were processed

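RNA of 8 mouse colon tumour libraries was extracted with TRIzol and prepared with a strand-marking NEBNext kit, per the labels' protocols. HISAT2 and DESeq2 are named in the submitters' processing notes, with no version, beside the build GRCh38, a human build. The gene identifiers belong to the mouse C57BL/6NJ annotation. The counting tool and its strand setting are not given in the sources used here.

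Per the file headers, the authors deposited for each of 1428 genes a normalized signal per library (counts divided by size factors), group means, the log2 fold change of KO over WT, the p-value and the adjusted p-value. The deposited gene length has no stated source. Every listed p is below 0.05, with the largest at 0.04999, so the list is selected. The adjustment behind it covered 19985 genes, a number worked back from the listed p-values, adjusted p-values and ranks. In each library 100% of values lay within 0.001 of a whole read after rescaling by a size factor, and the size factors ran from 0.933 to 1.12. Recovered reads over the listed genes sum to 1202677 to 2180787 per library, which is not the library depth. The largest sum is that of KO replicate 4, and the next is 1533770 in KO replicate 3. Libraries of a group had a chi-square of at least 20.3 per gene between their counts, far beyond sampling, so none were merged. Pairs with KO replicate 4 had 293 to 401, against 20.3 to 26.1 among the other KO libraries and 28.8 to 96.0 within WT.

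The members, gene lists and rules were chosen with earlier results of these data known. Named genes are Arntl, Per2, the listed members of the clock lists (1 gene is not reported here and enters no count over these lists), and for each of Arntl and Per2 the 3 genes of highest and the 3 of lowest centred r. Since the members were chosen from the comparison itself, the authors' deposited p-values and those of the refits are descriptions of selected genes, not independent tests. Recovered reads were refitted as alternatives with DESeq2 1.42.0 and the quasi-likelihood test of edgeR 4.0.16, under R 4.3.3, keeping the size factors the deposited values imply. A limma 3.58.1 fit used log2(value + 1) of the deposited values. Its differences, 1.086 for Arntl and 0.823 for Per2, are therefore the main values themselves. Other alternatives were a pseudocount of 0.1 in place of 1, TMM and DESeq2 scaling from the listed genes, and leaving out libraries. On simulated data with known changes, edgeR was tested before use. In the simulated KO against WT comparison over 1428 genes it found 72.4% of genes changed 2-fold and 94.7% of those changed 4-fold. These shares hold for the spread set in the simulation and are no detection rates for Arntl or Per2. In the deposited values the SD was 57.0% of the mean in WT and 72.8% in KO for Arntl. For Per2 it was 28.4% in WT and 67.6% in KO. Detection at the spread of these 2 genes was not tested. Promoters and microRNAs are from RefSeq (GRCm38.p6), and 3′ UTRs are the parts of GENCODE M21 protein-coding transcripts beyond the stop codon; no coordinates were moved between builds.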

Additional observations from a re-analysis of the deposited data

Results flagged for a closer look

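Single libraries lay far from the other 3 of their group in 2 of the 12 sets of 4 values examined, by Dixon's test of the gap to the nearest library over the range of the group. For Per2 in KO, replicate 4, at 2162 normalized counts against 586 to 823, left a gap of 0.85 of the range. For Cry1 in WT, replicate 2, at 565 against 355 to 361, left a gap of 0.971. Chance marks about 1 group in 20. In Arntl the same KO library left a gap of 0.816, below the critical value.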

How the results depend on the processing

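The KO minus WT difference of mean log2(value + 1) was positive for both genes, and the sign was kept under all 18 alternatives for Arntl and all 18 for Per2. The edgeR and DESeq2 alternatives are model log2 fold changes, a different statistic. The limma alternative equals the main value by construction and could not differ. The Arntl value was 1.09, and ran from 0.656 without KO replicate 4 to 1.43 without WT replicate 2. The Per2 value was 0.823, and ran from 0.422 without KO replicate 4 to 1.05 without KO replicate 1. It was 0.237 without WT replicate 4 and KO replicate 4. TMM and DESeq2 scaling from the listed genes moved the median difference of all listed genes by -0.16 and -0.17, Arntl to 0.92 and 0.91 and Per2 to 0.66 and 0.65. The Arntl to Per2 difference kept its sign under all 14 alternatives, but fell from 0.263 to 0.0087 without WT replicate 1. Scaling cancels in a ratio within a library, and the replicate block returns the same mean. These alternatives could therefore not change the sign.

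Of the 4 clock genes listed higher and 1 lower, an adjusted p below 0.05 left 0 and 0. An edgeR quasi-likelihood refit of recovered reads left 3 (Npas2, Per2 and Cry1) and 1 at an unadjusted p below 0.05, which describes genes already selected by this difference. In edgeR refits without 1 library, 0 to 4 of those higher and 0 to 1 of those lower passed, with 0 higher without WT replicate 1, WT replicate 4 or KO replicate 4, 1 without WT replicate 3, 2 without KO replicate 2, and the gene listed lower kept only without WT replicate 1 or KO replicate 1. With the replicate number as a block, 2 higher genes (Arntl and Cry1) and 0 lower passed. Same-numbered libraries are not shown to be paired: correlations of their deviations from the group means ran from -0.24 to 0.05, and not every library correlated best with its own number. Of the 12 genes named for likeness, 5 remained with Spearman ranks, 11 with uncentred values and 2 without KO replicate 4, an alternative added after the data were seen, as was leaving out WT replicate 2 with KO replicate 4. The cause of the changed counts was not tested. Depth limits little here, since the members rest on at least 186 reads per library.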

Other observations

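Genes that respond to, or act in, other inputs known to reset clocks were also looked up. The background was 7.06% of all 19985 genes at an unadjusted p below 0.05. Of 21 immediate-early genes, which respond within minutes to signals such as growth factors, 3 were listed. Fos and Fosb were higher and Dusp1 lower in KO, and only Fosb passed an adjusted p below 0.05 in the authors' deposited table (DESeq2). Their summed level, which adds genes listed higher and lower, ran from 2421 to 3196 normalized counts in WT and from 3079 to 4581 in KO. The sum was highest in KO replicate 1. Fos alone was highest in KO replicate 4, at 3555 against 3512 in KO replicate 1. Fosb stood at 389 in KO replicate 1 and 195 in KO replicate 4, and Dusp1 at 681 and 476. The centred r of Fosb was -0.35 with Arntl and -0.17 with Per2, and that of Fos was 0.39 with each. Dusp1 had -0.35 with Arntl and -0.64 with Per2. Without KO replicate 4 the r with Arntl and Per2 was -0.11 and 0.37 for Fosb and 0.13 and 0.05 for Fos. For Dusp1 it was then 0.64 and 0.28.

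Of 10 glucocorticoid-related genes, Nr3c1 was listed higher and Dusp1 lower, and the others were not listed. Dusp1 is also counted among the immediate-early genes above. Nr3c1, the glucocorticoid receptor, stood at 732, 1002, 846 and 668 normalized counts in WT replicates 1 to 4 and at 888, 998, 1108 and 1764 in KO replicates 1 to 4. Its centred r was 0.95 with Per2 and 0.77 with Arntl, and 0.82 and 0.45 without KO replicate 4. By r over all libraries it ranked 27 among genes like Per2 and 66 among genes like Arntl. Dusp1 went the other way, at -0.64 with Per2 and -0.35 with Arntl, but at 0.28 and 0.64 without KO replicate 4. The epithelial marker Cdhr5 had an r of 0.92 with Per2 and 0.77 with Arntl, and 0.73 and 0.44 without KO replicate 4. For Mep1a the values were 0.87 and 0.83, and 0.58 and 0.60 without that library. The part of glucocorticoid input was not tested. Of 10 genes that respond to temperature, Hspb1, a small heat shock protein, was the one listed. Hspb1 averaged 23.2 ± 9.73 in KO and 68.5 ± 13.0 in WT (SD, n = 4 each), with a DESeq2 adjusted p of 0.0738 in the authors' deposited table.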
